A study of Mus musculus with 6 samples.

Results

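The cavins and caveolins build caveolae, small flask-shaped pits of the plasma membrane. The 10 genes described here are the 4 cavins Cavin1 to Cavin4, the 3 caveolins Cav1 to Cav3, and the membrane-bending partners Ehd2, Pacsin2 and Pacsin3. They were taken by symbol from a table of 20893 genes, and all 10 passed the filter on low values described below. The family was selected on the difference between knockout and wildtype values of Cavin4, which had the smallest p of all genes tested, and the other 9 members were added as its relatives and partners with results of the same comparison known. The differences between knockout and wildtype below therefore describe the members, and the adjusted p-values printed beside them are no independent support.

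Caveolins are hairpin-shaped membrane proteins that form the caveolar bulb together with cholesterol, and cavins are soluble coiled-coil proteins that coat it from the cytoplasm. Cav1 and Cav2 are found in endothelium and many other cells, whereas Cav3 is the caveolin of striated muscle and Cavin4 the cavin of striated muscle. In cardiomyocytes caveolae buffer stretch of the membrane, gather receptors and ion channels, and take part in shaping the transverse tubules.

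Hearts of C57BL6/J mice with a germline knockout of Rbpms, labelled R1KO, were compared with wildtype hearts, with 3 libraries in each group. Rbpms encodes an RNA-binding protein, and the controls are littermates per the design text. Embryonic hearts are named in the series title but neonatal hearts in the design text, so no stage is given here. The labels state neither the deleted part of the gene nor whether a library came from 1 animal or a pool, so p-values cover only the spread among these libraries, which may be technical. Libraries were stranded, made from mRNA and read from a single end. The deposited values are read numbers scaled per library and rounded to integers, called scaled reads below. Recovered reads ran from 4163230 to 5805710 per library. Sex-linked genes marked knockout replicate 3 and wildtype replicate 1 as female and the other 4 libraries as male. Rbpms itself held 375, 340 and 507 scaled reads in knockout libraries, against 1182, 1176 and 1317 in wildtype libraries. All 12 cardiomyocyte markers were present in every library, with a summed level of 32130 to 36163 in knockout and 33492 to 36667 in wildtype hearts. These are whole hearts, so fewer cells of a type and less RNA per cell cannot be told apart.

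Promoter windows of 250 bases before the transcription start were held for 9 of the 10 members, all but Cavin3, in RefSeq on the build GRCm38.p6. Windows are shown for Cavin4 and Pacsin3, the 2 members whose difference passed the threshold, and for Cav3, the muscle caveolin whose groups overlapped. For Pacsin3, which has more than 1 start, the first listed start is given. Capitals mark matches on either strand to the E-box CANNTG, which basic helix-loop-helix factors bind, the TATA box TATAAA, the M-CAT motif CATTCC of TEAD factors, and the GATA motif AGATAA.
Cavin4 (chr4:48663264-48663513, forward strand): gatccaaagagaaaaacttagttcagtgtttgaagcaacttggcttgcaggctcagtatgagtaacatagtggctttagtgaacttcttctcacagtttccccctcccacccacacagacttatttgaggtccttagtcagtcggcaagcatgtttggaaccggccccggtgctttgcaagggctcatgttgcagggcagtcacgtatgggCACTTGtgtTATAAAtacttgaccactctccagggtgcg
Pacsin3 (chr2:91256563-91256812, forward strand): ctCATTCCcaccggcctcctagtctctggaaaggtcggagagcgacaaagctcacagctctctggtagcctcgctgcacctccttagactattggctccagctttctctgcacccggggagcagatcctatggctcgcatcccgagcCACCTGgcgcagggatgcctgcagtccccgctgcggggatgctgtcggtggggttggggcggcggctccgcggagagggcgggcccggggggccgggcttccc
Cav3 (chr6:112459255-112459504, forward strand): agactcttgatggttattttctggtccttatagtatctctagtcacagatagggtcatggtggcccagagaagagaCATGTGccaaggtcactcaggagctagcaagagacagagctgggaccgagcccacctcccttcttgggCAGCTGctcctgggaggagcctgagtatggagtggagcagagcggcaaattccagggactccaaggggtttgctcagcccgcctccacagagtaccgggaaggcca
The Cavin4 window held a TATA box whose first base lies at position -30 from the start and an E-box at -39, which do not overlap each other. The 9 members have 14 windows in all, since Pacsin2 has 3 and Cavin1, Cav1 and Pacsin3 have 2 each, and the counts here are per window. A TATA box was present in 2 of the 14 windows, that of Cavin4 and 1 of Cav1, where it lies at -221, and in 12.4% of 32851 mouse promoter windows of the same length. An E-box was present in 10 of the 14 windows and in 66.2% of all windows. M-CAT was found in 3 windows, both of Cavin1 and 1 of Pacsin3, against 12.6% of all windows, and GATA in 1 window of Pacsin2, against 9.99%. Neither the CArG box of serum response factor nor the MEF2 box, both searched by their full letters, was found in the 14 windows, and these occurred in 1.47% and 0.508% of all windows. The GC box GGGCGG, left in lower case above, occurred in 8 of the 14 windows and in 32.7% of all windows. The 2 windows of Cavin1, chr11:100970618-100970867 and chr11:100970616-100970865, overlap and hold the same M-CAT and GC box, which are counted in both. By member, M-CAT was present in 2 and the GC box in 6 of the 9. The Cavin4 window was 48.8% G and C, against 67.6% in the Pacsin3 window and 56% in the Cav3 window.

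Among the cavins, Cavin4 was higher in knockout hearts by the widest margin. Cavin4, also known as the muscle-restricted coiled-coil protein, lies on chromosome 4 from 48663514 to 48673502 on the forward strand of mm39. It held 665, 612 and 694 scaled reads in knockout libraries, against 368, 343 and 345 in wildtype libraries. The lowest knockout library stood well above the highest wildtype library. The means were 657 ± 41.6 in knockout and 352 ± 13.9 in wildtype hearts (SD, n = 3 each), a ratio of 1.87. On the scale of log2(value + 1) the difference was 0.90 (standard error 0.07; limma over all 14974 tested genes, adjusted p = 0.00789). A larger absolute difference was seen in 3.11% of the tested genes. The values rested on 710, 589 and 814 recovered reads in knockout and 353, 358 and 292 in wildtype libraries. By sex, Cavin4 stood at 694 in the female knockout and 368 in the female wildtype library, and 665 and 612 in male knockout and 343 and 345 in male wildtype libraries. The female values come from 1 library in each group and have no spread of their own. When wildtype replicate 2 was left out the adjusted p of Cavin4 was 0.0967, and when wildtype replicate 3 was left out it was 0.133, with log2 differences of 0.88 in both cases. In those fits limma called 0 genes of any kind, with 2176 and 1852 at an unadjusted p under 0.05, and Cavin4 still had the smallest p.

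**Figure D1:**
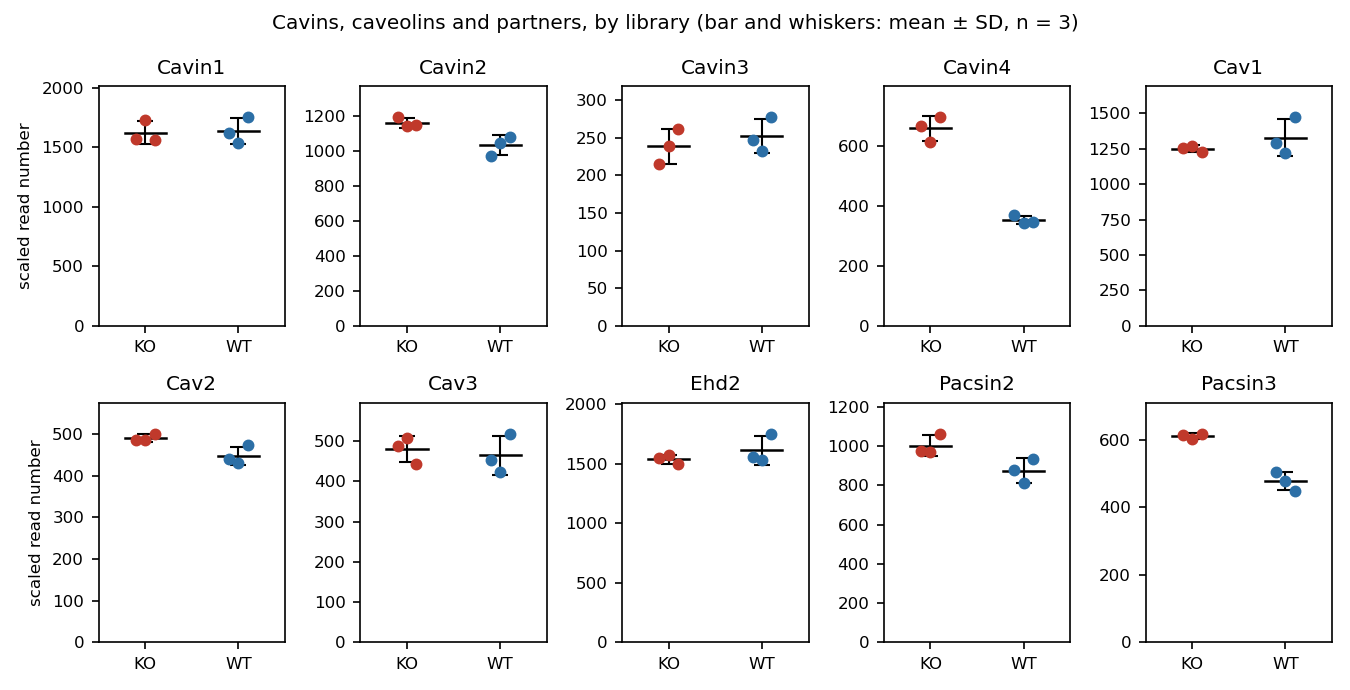
Scaled read numbers of the 10 members in each library, knockout (KO) left and wildtype (WT) right, each panel on its own axis from 0; points are libraries, lines and whiskers the mean ± SD (n = 3). Cavin4 stands at 612 to 694 in knockout and 343 to 368 in wildtype libraries, whereas Cavin1, Cavin3, Cav1, Cav3 and Ehd2 overlap between groups.

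The other cavins differed less. Cavin2, also called serum deprivation response protein and abundant in endothelium, held 1195, 1145 and 1148 scaled reads in knockout libraries, against 971, 1049 and 1083 in wildtype libraries. Its groups did not overlap, but the log2 difference of 0.17 (standard error 0.06) did not pass the threshold (limma, adjusted p = 0.228). Cavin1, or PTRF, without which caveolae do not form, held 1567, 1733 and 1565 in knockout libraries, against 1618, 1536 and 1752 in wildtype libraries. The groups were interleaved, and the log2 difference was -0.01 (standard error 0.07; limma, adjusted p = 0.955). Cavin3, a cavin that binds protein kinase C delta, held 215, 239 and 261 in knockout libraries, against 247, 232 and 277 in wildtype libraries. These groups overlapped as well, with a log2 difference of -0.08 and a standard error of 0.11 (limma, adjusted p = 0.752).

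The 3 caveolins lay close to the wildtype level. Cav3, the muscle caveolin, held 488, 507 and 444 scaled reads in knockout libraries, against 452, 423 and 518 in wildtype libraries. The highest value of Cav3 was in a wildtype library, and the log2 difference was 0.05 (standard error 0.09; limma, adjusted p = 0.827). Cav1, the main caveolin of non-muscle cells, held 1256, 1270 and 1225 in knockout libraries, against 1292, 1220 and 1471 in wildtype libraries. Its log2 difference was -0.08 (standard error 0.08; limma, adjusted p = 0.639), and the wildtype libraries spread more widely, with a coefficient of variation of 1.84% in knockout and 9.73% in wildtype hearts. Cav2, which associates with Cav1, held 484, 486 and 500 in knockout libraries, against 440, 431 and 472 in wildtype libraries. The Cav2 groups were separate, but the log2 difference of 0.13 (standard error 0.07) did not pass the threshold (limma, adjusted p = 0.363). Cav2 and Cav1 are neighbours on chromosome 6 of mm39, from 17281184 to 17289114 and from 17306334 to 17341451, both on the forward strand and 17220 bases apart.

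Of the membrane partners, Pacsin3 rose. Pacsin3 and Pacsin2 are F-BAR proteins, which bend membranes at the caveolar neck, and Pacsin3 is the form of muscle. Pacsin3 held 614, 602 and 618 scaled reads in knockout libraries, against 505, 478 and 450 in wildtype libraries. All knockout libraries lay above all wildtype libraries, with means of 611 ± 8.33 and 478 ± 27.5 (SD, n = 3 each) and a ratio of 1.28. The log2 difference was 0.36 (standard error 0.07; limma, adjusted p = 0.0498), just inside the threshold of 0.05. It passed in 6 of 18 alternative fits, among which its adjusted p ran from 0.0164 to 0.223 and its log2 difference from 0.31 to 0.40. Without knockout replicate 1 the adjusted p of Pacsin3 was 0.168, and without wildtype replicates 1, 2 and 3 it was 0.193, 0.130 and 0.223. In a fit blocked on the replicate number it was 0.145. Pacsin2, which occurs in many tissues, held 977, 968 and 1063 in knockout libraries, against 880, 810 and 936 in wildtype libraries. The Pacsin2 groups did not overlap, and the log2 difference of 0.20 (standard error 0.07) did not pass the threshold (limma, adjusted p = 0.224). Ehd2, an ATPase that forms a ring at the caveolar neck and holds caveolae at the surface, held 1545, 1570 and 1493 in knockout libraries, against 1559, 1528 and 1750 in wildtype libraries. Its groups overlapped, with a log2 difference of -0.07 and a standard error of 0.07 (limma, adjusted p = 0.674).

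**Figure D2:**
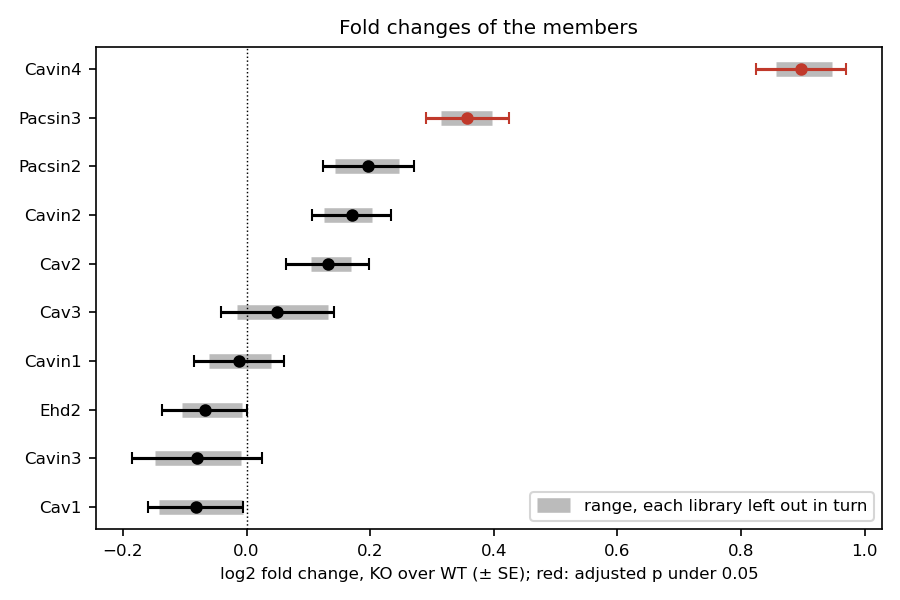
Log2 fold change of each member, knockout over wildtype, with its standard error (whiskers); red points have an adjusted p under 0.05 and grey bars span the fits that leave out each library in turn. Cavin4 (0.90) and Pacsin3 (0.36) are the red points; the grey bars of 8 members, these included, stay on one side of 0, and those of Cavin1 and Cav3 cross it.

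In all, 2 of the 10 members, Cavin4 and Pacsin3, were higher past the threshold and 0 were lower, where 0.942% of all tested genes passed, 0.508% higher and 0.434% lower. The groups did not overlap in 5 members, all 5 higher in knockout hearts, where 11% of the tested genes were separate in that direction and 22% in either. An unadjusted p under 0.05 was reached by 4 members and by 16.4% of the tested genes. The median log2 difference was 0.09 over the members and -0.000893 over all tested genes, and 6 members and 49.8% of the tested genes lay above 0. Nothing is read from these counts, because the same comparison was in view when the family was chosen.

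Levels of different genes were compared as scaled reads per 1000 bases of exon, with exon lengths from GENCODE release M21 matched by gene identifier. In knockout hearts Cavin1 was highest at 452 ± 26.9, followed by Cav3 at 415 ± 27.9, Cavin2 at 381 ± 9.18, Cav1 at 363 ± 6.69 and Cavin4 at 320 ± 20.2 (SD, n = 3). In wildtype hearts the order was Cavin1 at 456 ± 30.4, Cav3 at 401 ± 42.1, Cav1 at 386 ± 37.5, Cavin2 at 339 ± 18.8 and Ehd2 at 315 ± 23.5, with Cavin4 in place 7 at 171 ± 6.76. Cavin4 thus took place 5 of the 10 in knockout hearts, where its libraries overlapped those of Ehd2 below it and lay apart from those of Cav1 above it. In wildtype hearts its libraries overlapped those of Pacsin2 above it and lay apart from those of Cavin3 below it. Near the top of the knockout order, Cavin1 overlapped Cav3 and Cav3 overlapped Cavin2. Neighbours in the upper part of the wildtype order, Cavin1, Cav3, Cav1, Cavin2 and Ehd2, overlapped from each to the next. Measured per exon length, Cavin4 was above 97.5% of the tested genes in knockout and above 89.3% in wildtype hearts. Pacsin3 had the lowest mean in both groups, at 141 ± 1.92 in knockout and 110 ± 6.36 in wildtype hearts. Its libraries overlapped those of Cavin3 in knockout hearts and lay apart from those of Cav2, the next above it, in wildtype hearts. With the length of the longest transcript, 1993 bases instead of 4327 bases of exon, Pacsin3 moved to 307 in knockout and 240 in wildtype hearts, place 6 in both orders. That length also put Cav1 first in wildtype hearts, at 483 against 468 for Cavin1, and in place 2 in knockout hearts. By the same length Cavin4 was in place 8 in wildtype and place 5 in knockout hearts.

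**Figure D3:**
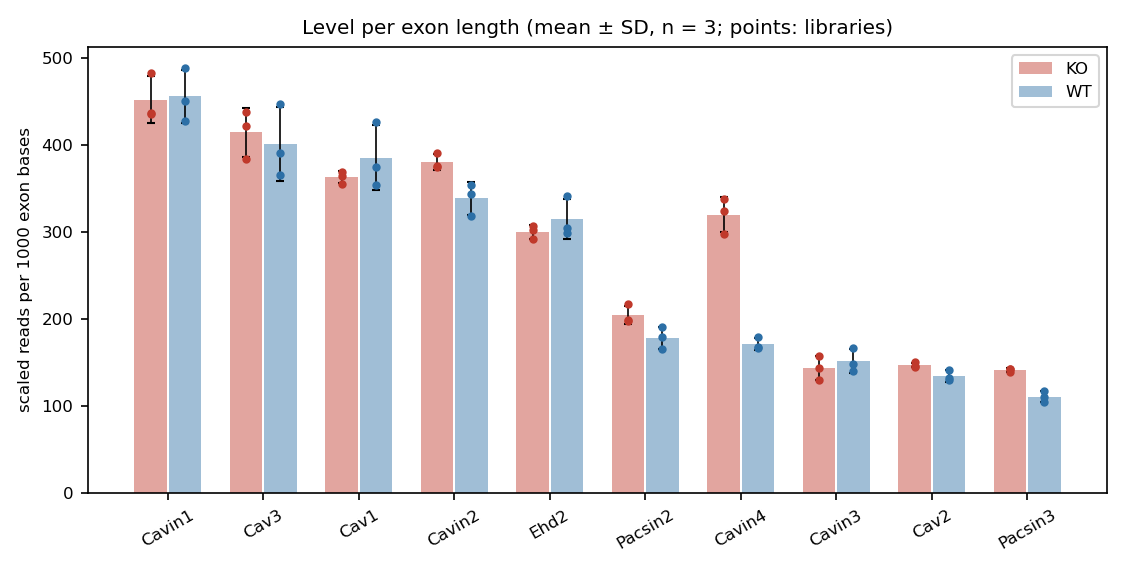
Scaled reads per 1000 bases of exon for each member in knockout (KO, left bars) and wildtype (WT, right bars) hearts, ordered by the wildtype mean; bars and whiskers are mean ± SD (n = 3) and points are libraries. Cavin4 averages 320 in knockout and 171 in wildtype hearts, the widest gap of the 10.

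Cavin4 made up a larger share of cavin RNA in every knockout library than in any wildtype library. On the scale of reads per 1000 exon bases, Cavin4 was 25.3%, 22.9% and 25.9% of the cavin sum in knockout libraries, against 16.3%, 15.5% and 14.3% in wildtype libraries. The summed cavin level was 1296 ± 13.3 in knockout and 1117 ± 52.9 in wildtype hearts (SD, n = 3 each). The share of Cavin1 was 34.9% ± 2.01 in knockout and 40.8% ± 0.933 in wildtype hearts, although its own level was close to equal. Cavin4 per Cavin1 was 0.741, 0.617 and 0.774 in knockout libraries, against 0.397, 0.39 and 0.344 in wildtype libraries. Cavin4 per Cav3, the muscle cavin over the muscle caveolin, was 0.768, 0.680 and 0.880 in knockout libraries, against 0.459, 0.457 and 0.375 in wildtype libraries. Both ratios were separate between the groups. The caveolin sum was 925 ± 32.2 in knockout and 921 ± 86.0 in wildtype hearts, and Cav3 made up 44.8% ± 1.48 of it in knockout and 43.5% ± 0.496 in wildtype hearts. These shares use the same comparison as the choice of members and were not tested.

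**Figure D4:**
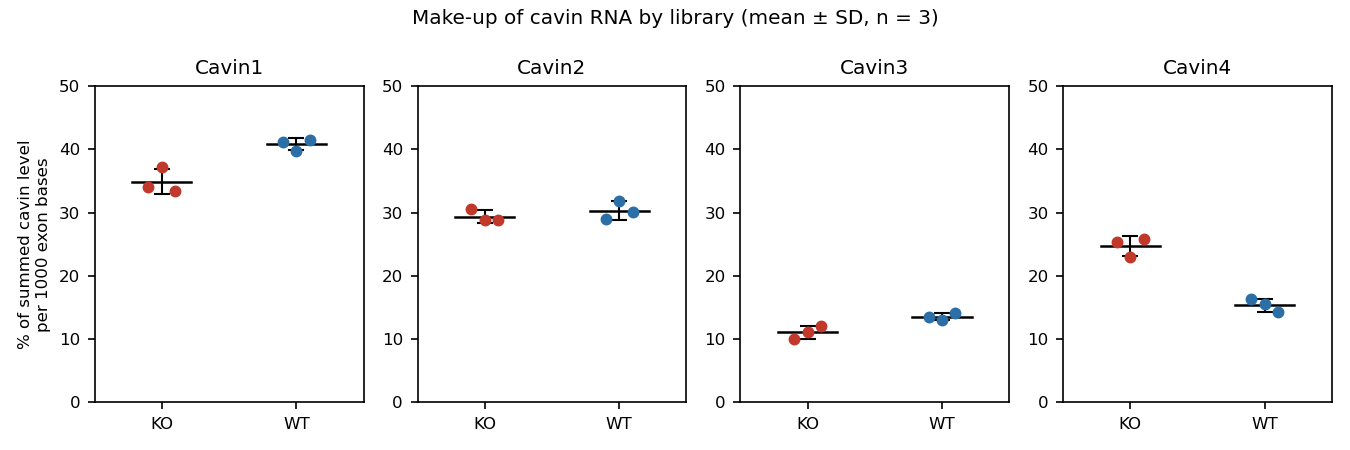
Share of each cavin in the summed cavin level per 1000 exon bases, by library, knockout (KO) left and wildtype (WT) right; lines and whiskers are mean ± SD (n = 3), on a common axis from 0 to 50%. Cavin4 takes 22.9% to 25.9% in knockout and 14.3% to 16.3% in wildtype libraries.

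Markers of the cell types that express the members were set beside these values. Cavin4 as a percentage of the summed cardiomyocyte markers was 1.95, 1.69 and 2.16 in knockout libraries, against 1.10, 1.00 and 0.941 in wildtype libraries. The densest of these markers averaged 0.925 reads per base of exon, the top of the range measured here. The part of this density in their sum was not tested. Pacsin3 on the same scale was 1.80% ± 0.129 in knockout and 1.38% ± 0.141 in wildtype hearts, and Cav3 was 1.40% ± 0.0246 and 1.33% ± 0.0908 in the same order (SD, n = 3 each). None of the 12 cardiomyocyte markers passed the threshold in limma, with 2 at an unadjusted p under 0.05, and their median log2 difference was -0.09. Of the tested genes 16.4% had a p this low. Myh7 (4560 to 4994 in knockout, 3902 to 4111 in wildtype libraries) and Nppa (743 to 763, 691 to 737) were separate and higher. Tnnt2 (3425 to 3803, 3899 to 4279) was separate and lower. Without overlap, 11% of the tested genes were higher and 10.9% lower. These markers were picked out after their values were seen. The summed level of 12 endothelial markers was 11630 to 11999 in knockout and 10616 to 11123 in wildtype libraries, without overlap. Of these 12, 7 were separate and higher in knockout libraries, as were 11% of the tested genes, and none passed in limma. An unadjusted p under 0.05 was reached by 4 of these endothelial markers and by 16.4% of the tested genes. The median log2 difference of the endothelial markers was 0.14. As a percentage of this endothelial sum, Cavin2 was 9.85 ± 0.107 in knockout and 9.57 ± 0.419 in wildtype hearts, and Cav2 was 4.15 ± 0.108 and 4.14 ± 0.0935 in the same order. Cav1 was 10.6% ± 0.283 of the endothelial sum in knockout and 12.3% ± 0.879 in wildtype hearts. The part of endothelial content in the values of Cavin2 and Cav2 was not tested.

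Other cell types that could carry caveolar RNA gave these sums. The 10 fibroblast markers summed to 13276 to 16184 in knockout and 14122 to 16473 in wildtype libraries, and the 10 smooth muscle and pericyte markers to 7551 to 8125 and 7969 to 8433 in the same order. Of these smooth muscle and pericyte markers, 5 were separate and lower in knockout libraries, as were 10.9% of the tested genes. Another 1 was separate and higher, as were 11% of the tested genes. In this list 5 had an unadjusted p under 0.05 in limma, as did 16.4% of the tested genes, and the median log2 difference was -0.21. The smooth muscle myosin Myh11 stood at 171 to 227 in knockout and 289 to 339 in wildtype libraries (limma, log2 -0.61, adjusted p = 0.0570). Calponin, Cnn1, stood at 38 to 112 in knockout and 155 to 202 in wildtype libraries (limma, log2 -1.33, adjusted p = 0.156). The contractile genes Acta2 (log2 -0.32) and Smtn (-0.29) and the channel subunit Abcc9 (-0.18) were the other 3 lower without overlap, with adjusted p = 0.110, 0.158 and 0.403 in limma. These 5 did not pass the threshold and are named because their groups were separate, a choice made after their values were seen. Tagln, of the same list, overlapped between groups, at 246 to 512 in knockout and 343 to 381 in wildtype libraries. Of the 10 markers, 3 had a log2 difference above 0. The part of this list in the values of the members was not tested. The pericyte proteoglycan Cspg4 was the gene of this list that passed the threshold, at 1207 ± 97.2 in knockout and 892 ± 57.2 in wildtype hearts (SD, n = 3 each; limma, log2 0.43, adjusted p = 0.0472). It passed in 7 of 18 alternative fits, with an adjusted p of 0.0915 without knockout replicate 1 and 0.158, 0.144 and 0.223 when wildtype replicates 1, 2 and 3 were left out. Of the skeletal muscle markers, the 11 measured here summed to 1591 to 1789 in knockout and 1855 to 2074 in wildtype libraries. Most of this sum was Ckm, at 1180 to 1401 in knockout and 1279 to 1553 in wildtype libraries. Acta1, at 183 to 383 and 372 to 447 in the same order, made up most of the rest. The sum thus rests on these genes and is no measure of skeletal muscle content. The defining genes Myod1 and Myh2 stood at 0 to 7 and 0 to 1 in knockout and at 0 and 0 to 4 in wildtype libraries. Erythroid markers summed to 811, 907 and 2144 in knockout and 782, 741 and 957 in wildtype libraries, and leukocyte markers to 1619 to 2027 and 1411 to 1582 in the same order. Of 8 adipocyte markers, Fabp4 and Pparg were measured, and the other 6, looked up by symbol, had no deposited values.

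Genes next to or overlapping the members on the chromosome gave the following values. Tmeff1, which ends 383 bases before Cavin4 on the same strand, held 237, 241 and 411 scaled reads in knockout libraries, against 332, 320 and 336 in wildtype libraries. Its difference did not pass the threshold (limma, log2 -0.20, adjusted p = 0.676). Gm12439, which starts 1654 bases after the end of Cavin4 on the same strand, held 54, 48 and 43 in knockout libraries, against 30, 30 and 26 in wildtype libraries. Its groups did not overlap, and its log2 difference of 0.73 did not pass the threshold (limma, adjusted p = 0.119). Arfgap2, which starts 295 bases after Pacsin3, had a log2 difference of 0.10 (limma, adjusted p = 0.586). Cavin1 and Cavin3 each overlap a listed gene on the opposite strand. These are ENSMUSG00000120984 with a mean of 234 in knockout and 213 in wildtype hearts, and Gm45667 with 27.3 and 33.7. The sources used here do not state the strand setting of the read counting, so reads in the stretch that each pair shares cannot be told apart.

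The genes whose pattern over the 6 libraries was most like that of Cavin4 were found by the root mean square difference of centred log2(value + 1) values. They were Hspa1l, a chaperone of the Hsp70 family, at 0.05, Sema3b, a secreted semaphorin, at 0.06, Fgf18, a fibroblast growth factor, at 0.10, and Napb, a membrane fusion factor, and the noncoding Snhg14, both at 0.11. Sema3b had a level closest to Cavin4, with 523, 472 and 557 scaled reads in knockout libraries, against 312, 260 and 260 in wildtype libraries. The mean of Hspa1l was 91.7 ± 3.51 in knockout and 51 ± 3 in wildtype hearts (SD, n = 3 each). This likeness is set mainly by the gap between the groups and is a description. Hspa1l has close Hsp70 copies, so its reads are uncertain where copies share sequence.

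Lists of genes that work with caveolae were read in the same fit. Of 17 tested caveolar partners, such as flotillins, dynamin and kinases that act on caveolin, 0 passed the threshold in limma. An unadjusted p under 0.05 was reached by 3 of them and by 16.4% of all tested genes, and the list median log2 difference was 0.08. The smallest p belonged to Ehd1, a relative of Ehd2 in endocytic recycling, which held 995, 1000 and 1141 in knockout libraries, against 887, 908 and 878 in wildtype libraries (limma, log2 0.23, adjusted p = 0.156). It was followed by Ror1, a receptor-like kinase (log2 0.21), Ehd3, another relative of Ehd2 (0.75), and the kinase Abl1 (-0.16), with adjusted p = 0.232, 0.303 and 0.309 in limma. Ehd3 varied widely, with 165, 112 and 263 in knockout libraries, against 99, 129 and 79 in wildtype libraries.

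Of all tested genes, 0.508% rose and 0.434% fell past the threshold. In the list of membrane repair and the dystrophin complex, 1 of 18 tested genes rose and 0 fell. An unadjusted p under 0.05 in limma was reached by 6 of the 18 and by 16.4% of all tested genes. The groups were separate and higher in 5 and separate and lower in 1, beside 11% and 10.9% of all tested genes. The list median log2 difference was 0.08. The riser was Trim72, or MG53, a muscle ubiquitin ligase that nucleates repair patches and acts with caveolin-3 and dysferlin. It held 319, 288 and 225 scaled reads in knockout libraries, against 179, 160 and 153 in wildtype libraries. The groups were separate, with a log2 difference of 0.74 and a standard error of 0.14 (limma, adjusted p = 0.0472), and it passed in 7 of 18 alternative fits. Without knockout replicate 1 its adjusted p was 0.143, and without wildtype replicates 1, 2 and 3 it was 0.173, 0.148 and 0.224. The next in this list by p were Sgce, a sarcoglycan (log2 -0.35), the annexin Anxa1 (0.58) and Dmd, which encodes dystrophin (0.26), with adjusted p = 0.111, 0.135 and 0.166 in limma.

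Among the transverse tubule genes reported here, the sodium and calcium exchanger Slc8a1 held 3893, 3833 and 3357 scaled reads in knockout libraries, against 3211, 3412 and 3365 in wildtype libraries. Its groups overlapped, with a log2 difference of 0.15 and a standard error of 0.07 (limma, adjusted p = 0.345). The calcium channel subunit Cacna1c (log2 -0.12), Lrrc10 (0.14) and the junctophilin Jph2 (0.08), which ties the tubule to the sarcoplasmic reticulum, did not pass either, with adjusted p = 0.400, 0.427 and 0.715 in limma.

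Caveolae are rich in cholesterol and sphingomyelin, and 20 genes of cholesterol synthesis and uptake were tested. Of these 1 rose and 0 fell, beside 0.508% and 0.434% of all tested genes. An unadjusted p under 0.05 in limma was reached by 1 of the 20 and by 16.4% of all tested genes. Lss, which encodes lanosterol synthase, held 306, 264 and 267 scaled reads in knockout libraries, against 165, 203 and 155 in wildtype libraries (limma, log2 0.68, standard error 0.12, adjusted p = 0.0464). The list median was -0.09, and 12 of the 20 genes lay below 0. Lss passed in 8 of 18 alternative fits, with an adjusted p of 0.143 without knockout replicate 1 and 0.231, 0.0974 and 0.214 without wildtype replicates 1, 2 and 3. Next by p were Dhcr7 (log2 -0.38), Nsdhl (-0.33) and Srebf2 (-0.24), a pair of enzymes and the regulator of the pathway, with adjusted p = 0.317, 0.324 and 0.452 in limma. Without knockout replicate 3 their log2 differences were -0.18, -0.16 and -0.08. Among 12 tested sphingolipid genes 0 passed in limma and 3 had an unadjusted p under 0.05, as did 16.4% of all tested genes. Smpd1, the acid sphingomyelinase, is in this table the nearest gene after Cavin3 by coordinate, 72060 bases away on the opposite strand. It held 1034, 925 and 1098 in knockout libraries, against 741, 713 and 816 in wildtype libraries (limma, log2 0.43, adjusted p = 0.0521). Sgms2 (log2 0.70), Sgms1 (0.31) and Cers5 (0.10) followed, with adjusted p = 0.190, 0.285 and 0.556 in limma.

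**Figure D5:**
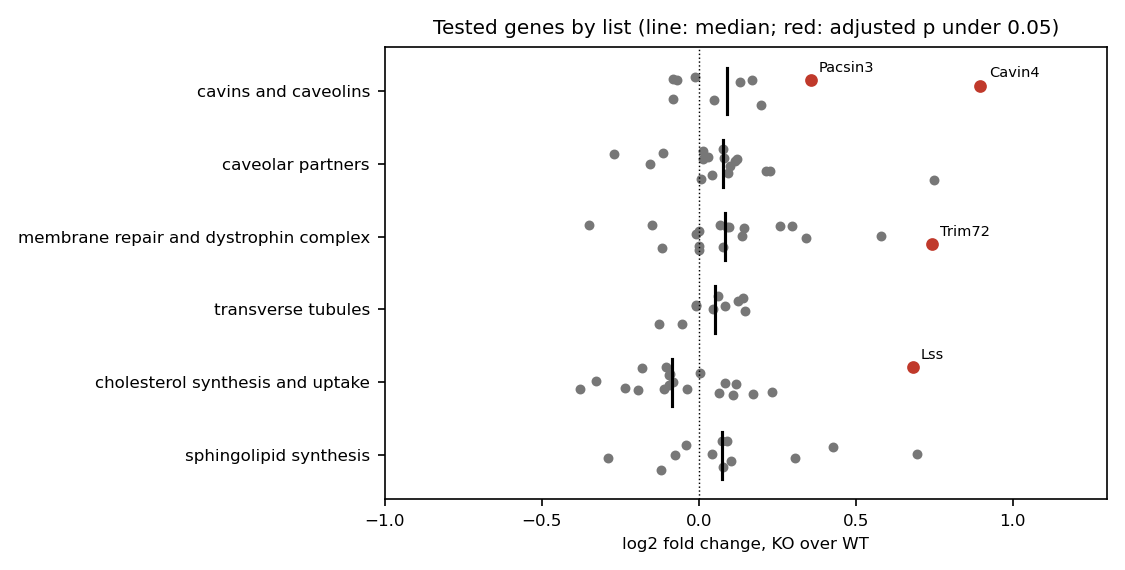
Log2 fold change, knockout over wildtype, of each tested gene in the members' list and 5 lists of related genes; black lines are list medians and red points have an adjusted p under 0.05. The 4 named genes are Cavin4 (0.90), Trim72 (0.74), Lss (0.68) and Pacsin3 (0.36).

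Of the 20172 genes with an exon length, none had a mean above 0.925 recovered reads per base of exon. Cavin4 held 0.343 reads per base in knockout and 0.163 in wildtype hearts, and Cavin1, the densest member, 0.481 and 0.431 in the same order. Cav3 held 0.441 and 0.379, and Pacsin3 0.151 and 0.105. Picard, which can mark duplicate reads, is among the tools in the submitters' processing notes, but the notes do not say whether duplicates were removed. Removal from single-end libraries would hold back the values of dense genes, and with them the folds, the orders per exon length, the cavin shares and the marker percentages above. Its part in these values was not tested.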

How the data were processed

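The submitters' processing notes list, without saying what each was used for, DESeq2 1.36.0, featureCounts 2.0.4, Picard 3.0.0, STAR 2.7.11a and Trimmomatic 0.39, and they name the build mm39. The unit of the deposited values is a score: the authors scaled the reads of each gene per library and rounded them to integers, as read from the spacing of values under 400. Dividing by the factors recovered the reads, with knockout libraries at 5244430, 4773244 and 5805710 and wildtype libraries at 4655117, 5060232 and 4163230. Per library, 99.9952% to 100% of the values could be given by a whole read number after rounding to the nearest integer. With a factor under 1, as in knockout replicates 1 and 3 and wildtype replicate 2, this share is 100% whatever the factor. In the other libraries the factor was refined to raise this share, so it is no independent check of the recovered reads. In libraries with a factor under 1 some values could come from more than 1 read number.

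The members and lists were chosen with earlier results of these data known. The 14974 genes that reached a value of 10 in 3 or more libraries were fitted with limma 3.58.1 (statmod 1.5.0, R 4.3.3) on log2(value + 1), with trend and robust moderation, all 6 libraries and no covariate. This scale understates the change of low genes. Benjamini-Hochberg adjustment ran over all tested genes, with a threshold of 0.05. The scripts were tested on simulated data. Named genes were the members, Rbpms and Rbpms2, up to 4 genes of each pathway list by smallest p, marker genes past the threshold, and the 5 genes closest to Cavin4 in pattern. Some marker genes that did not pass, and genes next to or overlapping the members, were named as well. In the transverse tubule list 1 gene is not reported here. Rbpms2, the closest paralogue of Rbpms, had a log2 difference of -0.08 (adjusted p = 0.627). Alternatives covered pseudocount, filter, scaling, moderation, voom, a replicate block, a term for sex, male libraries only and each library left out. Exon lengths matched 98.2% of the tested genes, from an annotation of another build whose coordinates were left out. Promoter coordinates are those of RefSeq's build.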

Additional observations from a re-analysis of the deposited data

How the results depend on the processing

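The count of genes past the threshold was 141 and moved to 218 with no filter on low values, 83 with a minimum value of 50, 24 without trend and robust moderation, 72 and 73 with voom on deposited values and on recovered reads, 23 with the replicate block, 223 with sex as a covariate and 256 when male libraries alone were used. It ran from 0 to 727 when each library was left out in turn. The share of higher genes was 53.9% in the comparison as reported, 40% with upper quartile scaling, 42% with equal totals and 38.9% with voom. The count of members past the threshold was 2 and became 1 with a pseudocount of 0.5, a minimum value of 50, upper quartile scaling, equal totals, no trend or robust moderation, either form of voom and the replicate block, and ran from 0 to 2 when each library was left out. Cavin4 passed in 16 of 18 alternatives and lay above 0 in all 18, with log2 differences of 0.86 to 0.95 when each library was left out and an adjusted p from 0.000109 to 0.133 over the 18. Pacsin3 did not pass with a pseudocount of 0.5 (log2 0.36), a minimum value of 50 (0.36), upper quartile scaling (0.32), equal totals (0.34), no trend or robust moderation (0.36), voom on deposited values (0.34) or recovered reads (0.33) and the replicate block (0.36), and ran from 0.31 to 0.40 when each library was left out. Jph2 turned to -0.010 and Cavin1 to 0.0065 in the male subset, and Cavin1 ran from -0.0603 to 0.0391 when each library was left out, and Cav3 ran from -0.0148 to 0.131. The cause of these shifts was not tested. The male subset was chosen after the sex-linked genes were read. Same-numbered libraries had correlations of -0.169, -0.111 and -0.130 in their deviations from the group means, so the replicate numbers gave no sign of pairing. Knockout replicates 1, 2 and 3 had correlations of 0.125, 0.136 and 0.124 with wildtype replicates 2, 3 and 1, each of the same sex. Also both male were knockout replicate 1 with wildtype replicate 3, at 0.039, and knockout replicate 2 with wildtype replicate 2, at -0.111. The remaining pairs stood at -0.016 and 0.003. Pairing in another order was not tested. With the replicate block Cavin4 had a log2 difference of 0.90 and an adjusted p of 0.0254. TMM scaling was not run because the values are not counts.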
